A study of Mus musculus with 6 samples.

Results

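The mature microRNA miR-147 was followed in small RNA sequenced from the left ventricle of 6 old mice. It is 1 row, named mmu-miR-147, of the 698 miRNA rows in the deposited table. The row was picked because its level was higher in the mutants in an earlier reading of these same data. Its difference between the groups is therefore described here, and no p-value is reported for it. The WT group held 3 animals of wild-type genotype. The mutant group held 3 animals with the genotype label aMHC403/+, which carry the R403Q change in Myh6, a gene of cardiac myosin, the motor protein of the heartbeat. By the labels this genotype models HCM, read here as hypertrophic cardiomyopathy, in which the wall of the heart thickens. All 6 mice were over 50 weeks old, and no other treatment was given in the labels. Values are reads per 1000000 miRNA reads (RPM), so each is a share of the miRNA reads of its library.

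MicroRNAs are short RNAs that pair with messenger RNAs, mainly through their seed (bases 2 to 8), and lower the output of those messengers. miR-147 is known from mouse macrophages, where stimulation of Toll-like receptors (TLRs, sensors of microbial and damage signals) raises it and where it dampens the release of inflammatory cytokines. It is made from the transcript of AA467197, also called Nmes1, which encodes a small protein. The human counterpart of this transcript is C15orf48, whose protein resembles the mitochondrial subunit NDUFA4, and the human miRNA in it is called miR-147b.

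The sequence of miR-147 is shown with that of miR-210, the only other row of the table with the same bases 2 to 7, and with the opposite arm of the miR-147 precursor. Capitals mark bases 2 to 8, read 5′ to 3′.
miR-147: gTGTGCGGaaatgcttctgcta
miR-210: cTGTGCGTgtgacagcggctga
miR-147-5p: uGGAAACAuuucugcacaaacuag
miR-147 and miR-210 part at base 8, and no other row shared the whole seed of miR-147. Set against each other without gaps, they matched at 7 of 22 bases. miR-210 is a miRNA raised by low oxygen in many cell types. The sequences of miR-147 and miR-210 are those of the deposited table, and the opposite arm is that of RefSeq (GRCm38.p6). The row nearest to miR-147 in sequence was 8 edits away, so a near-identical mature miRNA was not present in the table used here. No row held the opposite arm, whose level is not analysed here.

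The 22 bases of miR-147 matched a single mouse precursor, Mir147, at chr2:122640850-122640871 on the plus strand (GENCODE M21, GRCm38). The precursor spans 79 bases, chr2:122640803-122640881. The host gene AA467197 lies at chr2:122636986-122641191 and has 4 annotated transcripts, 3 of which hold the precursor in their last exon. In 2 of these it lies within the 3′ untranslated region, 33 bases after the stop codon. Other miRNA genes measured on this chromosome were far away. The nearest with a tested miRNA were Mir674, 5.46 Mb to the left, and Mir103-2, 8.65 Mb to the right.

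miR-147 was a scarce miRNA in these ventricles. It was read in all 6 libraries, at 37, 52 and 38 reads in WT replicates 1, 2 and 3 and at 79, 103 and 68 reads in HCM mutant replicates 1, 2 and 3. Before division by library size the read counts did not overlap between the groups, which repeats the values by which miR-147 was picked. The share of all tested miRNAs with such counts was not worked out. The libraries held between 2483486 and 5223636 miRNA reads, with 367 to 407 miRNAs detected in each. Of all rows, 478 were detected in at least 1 library, and the 193 with a mean of at least 10 RPM were tested. By its mean of 17.0 RPM, miR-147 ranked 169 of these 193.

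In RPM, miR-147 stood at 10.1, 14.0 and 7.27 in WT replicates 1, 2 and 3 and at 18.5, 24.8 and 27.4 in HCM mutant replicates 1, 2 and 3. The groups did not overlap, and the lowest mutant was 1.32 times the highest WT library. The group means were 10.5 ± 3.36 RPM (SD, n = 3) in WT and 23.6 ± 4.56 RPM (SD, n = 3) in the mutant, a ratio of 2.25. On the scale of log2(RPM + 1) the difference was 1.12 ± 0.27 (limma moderated SE), the fifth largest rise of the 193 tested (rank 5). Neither the SE nor the rank allows for the choice of miR-147 by its rise. The median difference of all tested miRNAs was 0.15 on this scale, which leaves miR-147 at 0.97 above it. Of all tested miRNAs, 18.1% likewise had their lowest mutant above their highest WT library, and 2.59% had their highest mutant below their lowest WT library. The shares given of all tested miRNAs count miR-147 too.

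The observed spread between the libraries of a group was wider than counting alone gives. It is a rough figure from 3 libraries per group, in which animal and library preparation cannot be told apart. The coefficient of variation was 32.1% in WT and 19.4% in the mutant, against 15.3% and 11.1% from Poisson counting at these depths. The 95% Wilson interval of the highest WT library, replicate 2, ran from 10.7 to 18.3 RPM and that of the lowest mutant, replicate 1, from 14.9 to 23.1 RPM. These intervals, which cover counting error only, overlapped. All others of the mutant lay clear of all those of WT, as their lowest bound was 20.4 RPM. The deepest library, WT replicate 3, had the lowest level and the shallowest, HCM mutant replicate 3, the highest. The part of depth in the result was not tested.

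**Figure D1:**
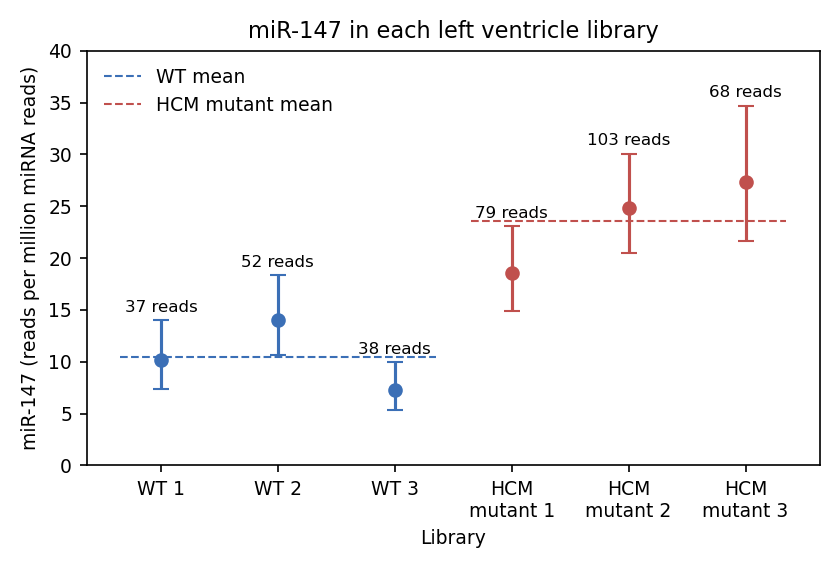
miR-147 in RPM (vertical axis) in each of the 6 libraries (horizontal axis), with 95% Wilson intervals for counting error, the number of reads above each point and the group means as dashed lines. The WT libraries sit between 7.27 and 14.0 RPM and the mutant libraries between 18.5 and 27.4 RPM.

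miR-210, chosen by its sequence, did not pass the test between the groups. It stood at 68.3, 103 and 76.4 RPM in WT replicates 1, 2 and 3 and at 86.0, 91.0 and 118 RPM in HCM mutant replicates 1, 2 and 3. The groups overlapped, with WT replicate 2 above 2 of the mutants. The means were 82.5 ± 18.0 RPM (SD, n = 3) in WT and 98.5 ± 17.4 RPM (SD, n = 3) in the mutants, and the log2 difference was 0.26 ± 0.25 (SE; 95% interval −0.24 to 0.76; limma adjusted p = 0.572). There were 14.9, 13.6 and 9.52 reads of miR-147 per 100 reads of miR-210 in the WT libraries and 21.5, 27.2 and 23.1 in the mutants. These ratios repeat the levels of miR-147, which was picked for its rise, and are a description only.

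Of other miRNAs linked to TLR signalling in macrophages or monocytes, most did not pass, as was so for most tested miRNAs. The list held 9 miRNAs besides miR-147, of which 7 were tested. Of these 1 was higher and 0 were lower in the mutant (limma adjusted p under 0.05), where 5.18% of all tested miRNAs were called, all of them higher. Their median log2 difference was 0.39, against 0.15 over all tested, and for 3 of the 7 the groups did not overlap, with the mutants above, as for 18.1% of all tested. For miR-132, 1 of these 3, the nearest libraries of the groups were both at 219 RPM, in effect a tie. The list was drawn up with earlier results of these data known.

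The member that passed was miR-21, an inflammatory miRNA that is also abundant in cardiac fibroblasts. Its log2 difference was 1.43 ± 0.26 (SE; limma adjusted p = 2.09e-04), and the call was lost with TMM scaling (limma adjusted p = 0.0791) and without WT replicate 3 (limma adjusted p = 0.0566). miR-132, which acts in inflammation and in growth of heart muscle cells, stood at 134, 219 and 164 RPM in WT replicates 1, 2 and 3 and at 298, 219 and 224 RPM in HCM mutant replicates 1, 2 and 3. The second library of each group was nearly level, and miR-132 did not pass (0.53 ± 0.24, limma adjusted p = 0.180). miR-155, a promoter of inflammatory responses in macrophages, had a WT level of 48.2 ± 10.4 RPM (SD, n = 3) and a mutant level of 42.7 ± 4.38 RPM (SD, n = 3) (log2 difference −0.16, limma adjusted p = 0.793). miR-187 was at 38.8 ± 8.78 and 38.4 ± 4.30 RPM (SD, n = 3), with a 95% interval of the log2 difference from −0.51 to 0.51. miR-9 did not pass either (0.29 ± 0.26, limma adjusted p = 0.539).

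miR-146a and miR-146b, which damp TLR signalling by acting on its adaptor proteins, share their seed and differ near the 3′ end, and they are shown here because reads of the pair are told apart only by those last bases.
miR-146a: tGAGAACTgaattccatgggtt
miR-146b: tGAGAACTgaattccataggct
miR-146a (chr11:43374435-43374456, minus strand) was at 34.5, 27.7 and 15.7 RPM in WT replicates 1, 2 and 3 and at 35.1, 33.9 and 29.4 RPM in HCM mutant replicates 1, 2 and 3. The groups overlapped, and it did not pass (0.39 ± 0.27, limma adjusted p = 0.432). miR-146b (chr19:46342790-46342811, plus strand) was at 3.56, 5.65 and 2.68 RPM in WT and at 7.97, 17.1 and 20.1 RPM in the mutants, from 13 to 21 and from 34 to 71 reads. All 3 mutants lay above all WT libraries, but the mean was below 10 RPM, so it was not among the 193. With no filter on low values, where 478 miRNAs were tested, miR-146b was higher in the mutant by 1.65 ± 0.38 (limma adjusted p = 0.00850). miR-212, the other member below 10 RPM, had a WT level of 1.19 ± 0.40 RPM (SD, n = 3) and a mutant level of 2.61 ± 0.88 RPM (SD, n = 3) and did not pass in that fit (limma adjusted p = 0.279).

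**Figure D2:**
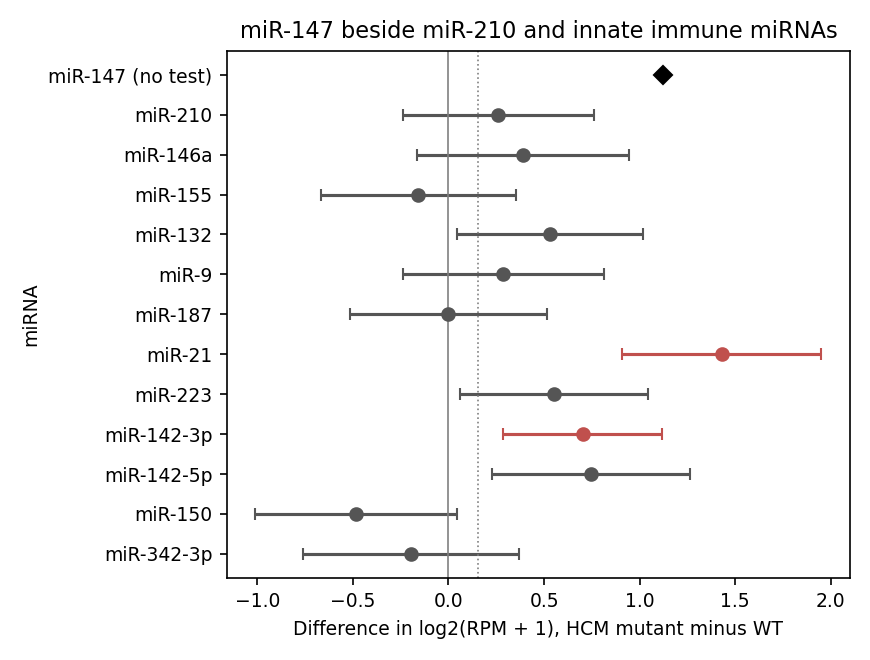
Difference in log2(RPM + 1), HCM mutant minus WT (horizontal axis), for miR-210 and the tested members of the TLR and leukocyte lists (vertical axis), with limma 95% intervals. Red marks an adjusted p under 0.05, the diamond is miR-147, for which no p-value is reported, the solid line is 0 and the dotted line is the median of all tested miRNAs, 0.15. miR-21 and miR-142-3p are in red, and the interval of miR-210 ends at 0.76.

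The differences of leukocyte miRNAs lay on both sides of 0. In bulk tissue, fewer cells of a type and less of the RNA per cell cannot be told apart. The 8 listed leukocyte miRNAs, of which miR-223, miR-155 and miR-146a are also in the TLR list, summed to between 1399 and 1832 RPM in the WT libraries and between 2173 and 2442 RPM in the mutants. That separation came from miR-142-3p, the most abundant member. Without it, a step chosen after seeing the data, the sums were 506, 629 and 423 RPM in WT replicates 1, 2 and 3 and 553, 599 and 606 RPM in HCM mutant replicates 1, 2 and 3, so that WT replicate 2 exceeded every mutant. Of the 7 tested, 1 was higher and 0 were lower, where 5.18% of all tested miRNAs were called higher. The differences of 4 of the 7 were above 0, against 71.0% of all tested. In both lists the count of lower members in this limma fit was 0 also at an unadjusted p under 0.05. With edgeR and DESeq2 on recovered reads it was 0 at an adjusted p under 0.05. miR-142-3p, found in all blood-derived cells, rose to 1728 ± 137 RPM (SD, n = 3) in the mutant from a WT level of 1065 ± 122 RPM (SD, n = 3) (0.70 ± 0.20, limma adjusted p = 0.0333). That call was lost without WT replicate 1, WT replicate 3 or HCM mutant replicate 3 (limma adjusted p = 0.0678, 0.194 and 0.298) and with median-of-ratios scaling (limma adjusted p = 0.0623). Its opposite arm miR-142-5p did not pass (0.74 ± 0.26, limma adjusted p = 0.0747).

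miR-223, a miRNA of neutrophils and monocytes, was at 203, 278 and 174 RPM in WT replicates 1, 2 and 3 and at 237, 353 and 370 RPM in HCM mutant replicates 1, 2 and 3. WT replicate 2 lay above HCM mutant replicate 1, and miR-223 did not pass (0.55 ± 0.24, limma adjusted p = 0.172). Without HCM mutant replicate 1, miR-223 and miR-142-5p passed (limma adjusted p = 0.0426 and 0.0324). miR-150, a miRNA of mature lymphocytes, had a difference of −0.48 ± 0.26 (limma adjusted p = 0.292). Without HCM mutant replicate 1 that of miR-150 was −0.75, just short of passing (limma adjusted p = 0.0507). miR-342-3p had a difference of −0.20 ± 0.28 (limma adjusted p = 0.738). miR-342-5p was at 0 reads in 2 libraries and at most 1.10 RPM elsewhere.

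Ratios within a library do not depend on its total. They are no separate result, as miR-147 was picked for its rise and the ratios repeat its levels. Per 100 reads of miR-223 there were 5.0, 5.03 and 4.19 reads of miR-147 in the WT libraries and 7.80, 7.02 and 7.41 in the mutants, with no overlap. Per 100 reads of miR-142-3p there were 1.0, 1.16 and 0.745 in the WT libraries, against 1.04, 1.58 and 1.49 in those of the mutant, and here HCM mutant replicate 1 lay below WT replicate 2. Whether leukocytes take part in the difference of miR-147 was not tested.

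Of the 4 listed fibroblast miRNAs, all tested and miR-21 of the TLR list among them, 3 were called higher, where 5.18% of all tested miRNAs were. The 3 were miR-199a-5p, miR-214 and miR-21, none of which passed without WT replicate 3 (limma adjusted p = 0.0566, 0.0699 and 0.0566). The 4 are not independent of each other. miR-199a-5p and miR-199a-3p are opposite arms of shared precursors, and miR-214 comes from a transcript that also holds miR-199. This list too was drawn up with earlier results of these data known. For all 4 the groups did not overlap, as for 18.1% of all tested with the mutants above. Their sum ranged from 1613 to 3040 RPM in WT and from 3931 to 8512 RPM in the mutants. The part of fibroblasts in the difference of miR-147 was not tested. The 5 heart muscle miRNAs summed to between 425032 and 503983 RPM in WT and between 400915 and 463229 RPM in the mutants, and miR-1 and miR-208a made up most of it. Of these 5, 1 was called higher, miR-208b (0.63 ± 0.18, limma adjusted p = 0.0282), a call kept in 6 of 16 alternatives. For miR-499 all mutants lay below all WT libraries (−0.55 ± 0.17, limma adjusted p = 0.0559), and it was called lower in 7 of 16 alternatives. The red cell sums ranged from 2072 to 2855 RPM in WT and from 2056 to 2566 RPM in the mutants. The endothelial sums overlapped too, at 26942 to 38273 and 30476 to 37224 RPM, as did those of smooth muscle, at 24019 to 33615 and 28277 to 34755 RPM. miR-486 made up most of the red cell sums and miR-143 most of those of smooth muscle, so these sums say little of the other members. The 6 miRNAs of liver, brain and epithelium were all below 10 RPM on average, and miR-122 of liver was at 0 in 2 libraries. They summed to between 16.4 and 28.3 RPM in WT and between 14.4 and 16.9 RPM in the mutants. For miR-200c all mutants lay below all WT libraries, with means of 9.71 RPM in WT and 5.04 RPM in the mutants, and for the others the groups overlapped. With no filter miR-200c did not pass (−0.80, limma adjusted p = 0.261).

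**Figure D3:**
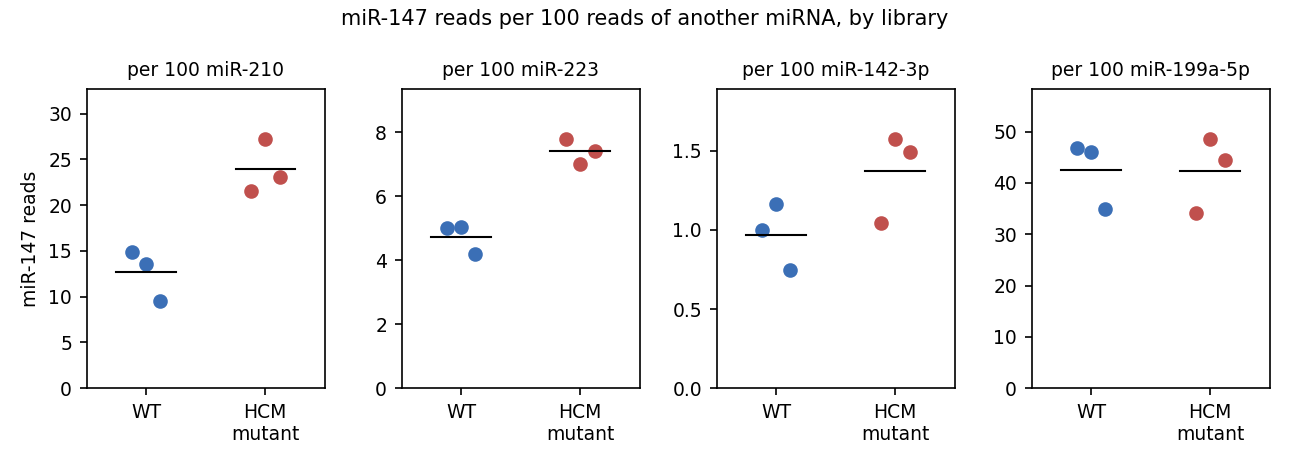
Reads of miR-147 per 100 reads of miR-210, miR-223, miR-142-3p and miR-199a-5p (vertical axes, 1 panel each) in the WT and HCM mutant libraries, with group means as lines. The groups are apart for miR-210 and miR-223 and overlap for miR-142-3p and miR-199a-5p. miR-147 was picked for its rise, and miR-199a-5p has the profile nearest to it, so the panels are a description.

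The profiles most like that of miR-147 over the 6 libraries were found by the root mean square difference of log2(RPM + 1) after subtraction of each miRNA's own mean. These miRNAs share the libraries and the totals, and were chosen by the same values, so they are described without a test. The nearest was miR-199a-5p (0.19), followed by miR-125b-3p (0.21), miR-188-5p (0.24), miR-214 (0.28) and miR-223 (0.30). The median over the other 192 tested miRNAs was 0.57, and miR-210 lay at 0.48. miR-199a-5p, known from fibroblasts and smooth muscle, stood at 21.7, 30.4 and 20.9 RPM in WT replicates 1, 2 and 3 and at 54.1, 51.0 and 61.6 RPM in HCM mutant replicates 1, 2 and 3. There were 42.6 ± 6.69 (SD, n = 3) reads of miR-147 per 100 of miR-199a-5p in WT and 42.4 ± 7.41 (SD, n = 3) in the mutant. As miR-199a-5p was the nearest profile, a like ratio in both groups follows from that choice. Per 100 reads of miR-21 there were 0.638 ± 0.283 (SD, n = 3) reads of miR-147 in WT and 0.520 ± 0.147 (SD, n = 3) in the mutant, with overlap. miR-188-5p was at 14.3, 18.0 and 11.9 RPM in WT and at 21.1, 24.1 and 27.8 RPM in the mutants. Like miR-147, miR-199a-5p, miR-188-5p, miR-214 and miR-223 were highest within WT in replicate 2 and lowest in replicate 3, and all 5 nearest were highest within the mutants in replicate 3. A shared order is in part built in, as these miRNAs were picked by their profiles. The same order within WT was seen in other tested miRNAs, such as miR-126-3p and miR-486, and its share over all tested was not counted.

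**Figure D4:**
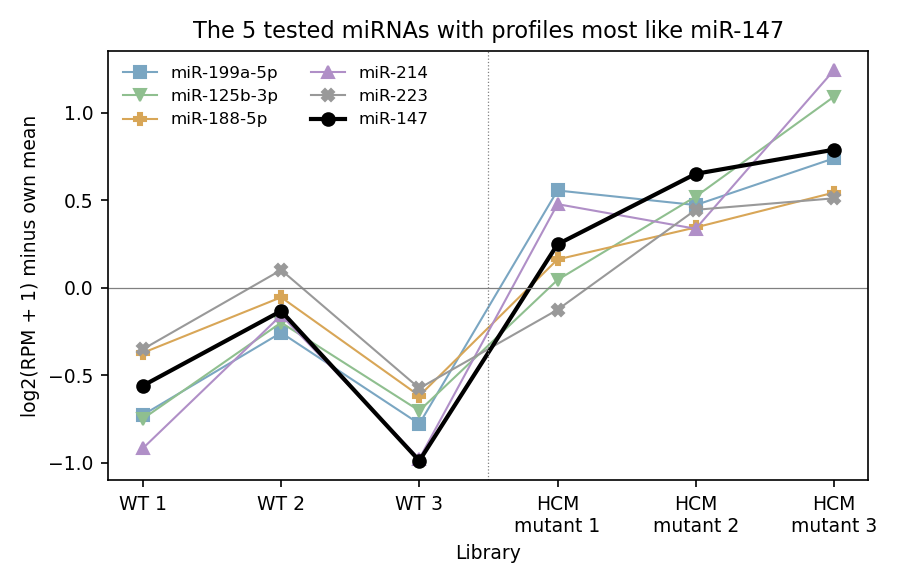
log2(RPM + 1) minus each miRNA's own mean over the 6 libraries (vertical axis) by library (horizontal axis) for miR-147 in black and the 5 miRNAs with the smallest root mean square difference from it. The lines only join points of 1 miRNA. miR-199a-5p, at 0.19, follows miR-147 most closely.

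The neighbours of Mir147 on its chromosome did not pass. miR-674 was at 101, 165 and 74.7 RPM in WT replicates 1, 2 and 3 and at 176, 128 and 182 RPM in HCM mutant replicates 1, 2 and 3, with overlap between the groups (0.57 ± 0.26, limma adjusted p = 0.186). It passed without WT replicate 2 (limma adjusted p = 0.0343). miR-103, whose sequence also occurs at a second locus, had a WT level of 421 ± 97.3 RPM (SD, n = 3) and a mutant level of 479 ± 12.7 RPM (SD, n = 3) (limma adjusted p = 0.629).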

How the data were processed

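Per the labels' protocols, a miRNA kit was used to take total RNA from the left ventricle for multiplexed miRNA sequencing. The deposited RPM values were made by the authors, and the file header only calls them normalised. Each column summed to 1000000 RPM less a few reads' worth, and 100% of values were whole multiples of 1 read's worth (0.191 to 0.403 RPM, tolerance 0.02 reads), so reads were recovered. A count of 0 allows up to 3 reads, 0.574 to 1.21 RPM. For the aligner, the counter and the genome build, the entry is: not given in the sources used here. For the 193 miRNAs averaging 10 RPM or more over the 6 libraries, log2(RPM + 1) was tested two-sided with limma 3.58.1 in R 4.3.3 (trend, no covariates) and called at a Benjamini-Hochberg adjusted p under 0.05. Alternatives were other scalings, pseudocounts and filters, leaving out single libraries, a replicate block, and both edgeR 4.0.16 and DESeq2 1.42.0 on recovered reads. On those, edgeR called 8 miRNAs higher and 1 lower, and DESeq2 called 8 and 4. The titles call the libraries biological replicates, and nothing says how the animals were bred or paired. miR-147 and the lists were chosen with earlier results of these data known, the lists from general knowledge. The named miRNAs were miR-147, those sharing its bases 2 to 7, the list members, cell type markers, the nearest tested miRNA genes on its chromosome, and the 5 nearest profiles. Of the 193, 189 matched a GENCODE M21 precursor exactly.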

Additional observations from a re-analysis of the deposited data

How the results depend on the processing

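The log2 difference of miR-147 stayed above 0 in all 15 alternatives that held it, and miR-147 lay below the filter at a mean of 100 RPM. Leaving out a library, changing the pseudocount, lifting the filter or adding the replicate block could not turn this sign, as the groups were apart. As miR-147 was picked for its rise, the count of alternatives is a description only. The difference was 0.72 with a pseudocount of 10, which by construction shrinks the change of a miRNA at this level. It was between 0.98 and 1.16 in the other alternatives that kept all libraries. With each library left out it ranged from 0.91 (without WT replicate 3) to 1.34 (without WT replicate 2). Scaling moved the median of all tested miRNAs from 0.15 to between −0.00081 and 0.05. miR-210 did not pass in any of 15 alternatives (differences 0.08 to 0.43, adjusted p 0.205 to 0.921).

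The number of TLR-list members called higher, 1 at first, was 0 with TMM scaling and 2 with no filter, and 0 to 2 with each library left out. That of the leukocyte list, also 1, was 0 with median-of-ratios scaling and 0 to 3 with each library left out. The causes were not tested. No member of either list was called lower in any alternative. The lowest mutant sum of leukocyte miRNAs exceeded the highest WT sum by 341 RPM, and without miR-142-3p in the sum, chosen after seeing the data, this gap was −75.9 RPM.

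Over all miRNAs, 10 were higher and 0 lower. The counts were 5 and 1 with median-of-ratios scaling, 4 and 0 with TMM scaling, 6 and 1 without the 5 most abundant miRNAs in the totals, 7 and 2 with no filter, 8 and 1 with edgeR and 8 and 4 with DESeq2 on recovered reads, and from 1 to 22 higher and 0 to 3 lower with each library left out. Same-numbered libraries deviated together at correlations of 0.51, −0.07 and 0.18, and 3 of 6 libraries correlated best with their own number. With so few libraries this cannot show whether the numbers pair the animals. The labels name no pairing, so the libraries were treated as unpaired. With the replicate block 16 were higher and 1 lower, and the difference of miR-147 was again 1.12 and that of miR-210 0.26 (adjusted p = 0.568).

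At 37 to 103 reads per library, counting error limits how finely levels of miR-147 can be told apart between single libraries.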
